A study of Mus musculus with 6 samples.

Results

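The S100 genes examined here are 10 members of the family of small EF-hand calcium-binding proteins, S100a1, S100a4, S100a6, S100a8, S100a9, S100a10, S100a11, S100a13, S100a14 and S100a16. They were chosen by gene symbol, with no measured value in the rule but with earlier results of these data known. All 10 were found among the 21240 genes counted. The counts come from stranded total RNA-seq of NMuMG cells, an epithelial line from the normal mouse mammary gland, sequenced as single-end reads of 50 bases. Cells grown in medium with serum and insulin were all kept without both for 6 h and then divided into 3 groups of 2 libraries, which the submitters call biological replicates without saying how the cultures were kept apart. The p-values below measure only the spread between these libraries. The vehicle group received the HCl and BSA solution in which TGFβ1 was diluted and was taken at 2 h. In the other groups TGFβ1 was given at 5 ng/ml, for 2 h in one and for 12 h in the other. No vehicle was taken at 12 h, so a difference between the 12 h group and vehicle cannot be told apart from that of a longer time without serum and insulin. Both treated groups were compared with the same vehicle libraries. Counted reads came to 16251758 and 14705886 in the vehicle libraries, 20578661 and 19904400 at 2 h, and 23786993 and 20142492 at 12 h.

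S100 proteins have no enzymatic activity. They usually form dimers, open a hydrophobic surface when calcium binds, and act by holding other proteins, among them annexins, non-muscle myosin and p53. Several are also released from cells and bind receptors such as RAGE and TLR4, and S100A4 in particular has been used as a marker of fibroblasts and of cells undergoing epithelial-mesenchymal transition.

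In short, the S100 transcripts examined did not move in step after TGFβ. At 2 h no member passed the test. At 12 h S100a4 and S100a8 had fallen and S100a16 had risen, while the most abundant member, S100a6, did not pass the test. Genes that TGFβ is known to induce rose in the same libraries. Smad7, which inhibits the receptors, averaged 32.3 with vehicle, 136 at 2 h and 203 at 12 h in CPM, the counts of a gene relative to all counts of its library, scaled by TMM factors. Its log2 fold change (log2FC) against vehicle was 2.07 (SE 0.28, adjusted p = 0.00484) at 2 h and 2.65 (SE 0.28, adjusted p = 0.000589) at 12 h by the quasi-likelihood test of edgeR with Benjamini-Hochberg adjustment, which gave every adjusted p below unless another is named. Skil, a repressor of SMAD proteins, had log2FC 2.09 (SE 0.24, adjusted p = 0.00288) and 2.21 (SE 0.24, adjusted p = 0.000659) at the same times.

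The epithelial label was only partly borne out by marker genes. Of 12 epithelial markers, Krt18, Krt8, Krt19, Cdh1, Dsp, Tjp1 and Ocln were abundant, and all 12 had summed levels of 6737 and 5833 CPM with vehicle, 7518 and 7373 CPM after 2 h and 11482 and 11493 CPM at 12 h. Krt18 was the most abundant, at 2148 CPM with vehicle and 6184 CPM at 12 h. Krt19, second with vehicle, fell from 1754 to 455 CPM (log2FC -1.95, SE 0.13, adjusted p = 0.000103). Of the 8 epithelial markers tested, Krt7, Krt8, Krt18 and Dsp were called higher at 12 h (21.8% of all tested genes) and only Krt19 lower (21.5%), with Ocln (-0.52), Tjp1 (-0.34) and Cdh1 (-0.07) not called. Krt7 was below 2 CPM with vehicle, but was called without a filter on low counts too (adjusted p = 0.00822). Cldn3 and Esrp1 had at most 3 counts in every library, Cldn7 had 0 counts in 5 of the 6 libraries and 7 in the other, and Epcam had between 2 and 16 counts. Leukocyte markers bear on S100a8 and S100a9, which neutrophils make in large amounts. Of 13 such markers 12 were in the table, and their summed levels were 7.82 and 7.89 CPM with vehicle, 7.28 and 7.96 CPM after 2 h and 5.31 and 7.65 CPM at 12 h. Most of this was Cd68, a lysosomal protein not limited to macrophages, at 6.25 CPM with vehicle. Cd3e had no count in any library. The neutrophil genes Elane, Mpo and Camp and the macrophage gene Adgre1 had at most 3 counts in every library, and Ptprc, found on all leukocytes, at most 4. Myoepithelial markers, 7 in all, summed to between 2.99 and 12.2 CPM per library, mostly Krt14, with Oxtr at 0. The 8 fibroblast markers, with Thy1 at 0, summed to 5.23 and 3.56 CPM with vehicle, 9.76 and 9.12 CPM after 2 h and 16.6 and 14.8 CPM at 12 h. Pdgfra led them with vehicle (2.46 CPM) and Col1a1, which TGFβ induces, at 12 h (10.9 CPM), and the part of these cells in any S100 result was not tested.

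Levels of the members spread over nearly 4 orders of magnitude. Per kilobase of exon (RPKM, TMM-scaled), vehicle cells held 7920 ± 43.2 (SD, n = 2) of S100a6, 1854 ± 16.3 of S100a4 and 274 ± 0.0361 of S100a10. S100a13 followed at 123 ± 3.15 RPKM, then S100a1 at 117 ± 1.21 RPKM, S100a16 at 46.0 ± 1.12 RPKM and S100a11 at 33.0 ± 10.9 RPKM. S100a8 at 6.81 ± 0.932 RPKM, S100a14 at 2.72 ± 0.525 RPKM and S100a9 at 0.891 ± 0.464 RPKM were the rarest. In vehicle the replicate ranges of neighbours in this order did not overlap, although S100a13 and S100a1 were close. The place of S100a11 is uncertain, since many of its reads cannot be placed, as given below. At 2 h the order was the same except that S100a1 (117 and 146 RPKM) and S100a13 (110 and 138 RPKM) changed places with overlapping ranges. At 12 h the first 3 places were kept, with S100a6 at 6678 ± 1213 RPKM, S100a4 at 849 ± 202 RPKM and S100a10 at 296 ± 15.3 RPKM. The middle of the order closed up, since S100a13 (87.5 ± 20.6 RPKM) and S100a16 (75.0 ± 7.73 RPKM) then overlapped. Which of these 2 came first depends on the length used. The exons of S100a16 together span 1617 bases but its longest coding transcript 1127, while S100a13 has 715 by both. At the bottom S100a14 (2.14 ± 0.248 RPKM), S100a8 (1.72 ± 0.71 RPKM) and S100a9 (0.772 ± 0.855 RPKM) came in that order, with S100a8 overlapping both others and S100a14 above S100a9.

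**Figure D1:**
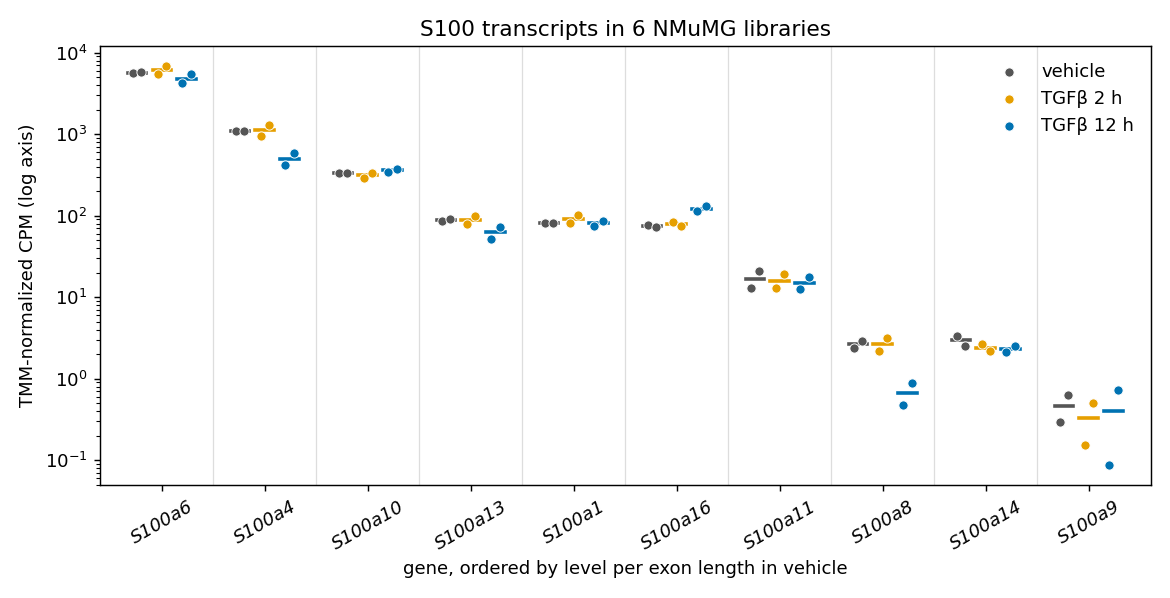
TMM-normalized CPM on a log axis for the 10 S100 genes, ordered from left to right by RPKM in vehicle. Points are single libraries, 2 per group, and bars are group means. The 12 h points lie below both other groups for S100a4 (414 and 582 CPM) and S100a8 (0.479 and 0.872 CPM) and above them for S100a16 (113 and 130 CPM).

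Together the 10 genes took 0.769% and 0.792% of all counts with vehicle, 0.666% and 0.87% at 2 h and 0.502% and 0.647% at 12 h. The 12 h libraries held the smallest shares. S100a6 made up between 77.1% and 81.1% of the S100 counts in each library and ranked from place 3 to place 10 among all genes counted. Its counts also bear on how the table was made. An annotated S100a6 transcript of 719 bases offers 670 positions at which a read of 50 bases can start, and the lowest S100a6 count was 89803, or 134 per position, so reads sharing a start position were still counted although duplicate removal is described. For S100a4 the lowest count was 21.2 per position. For S100a11, of the 462 stretches of 50 bases in its transcript, 306 (66.2%) also occur elsewhere in the genome, on 4 chromosomes, and reads from them cannot be placed uniquely, so its counts come from the remaining stretches alone. The other 9 members had no such copies, and no exon of a member overlapped an exon of another annotated gene.

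The replicates of a group differed in a way that many members shared. In the 12 h group 10 of the 10 members were lower in replicate 1 than in replicate 2, with a median log2 difference of 0.43, against 0.03 over the 11080 genes tested, of which 57.2% had this direction. At 2 h 8 of the 10 had the same direction (50.8% of the genes tested), with a median of 0.33 against 0.01. With vehicle it was 7 of the 10 (50.3%), with a median of 0.01 against 0.00. Genes with less than 1000 bases of exon, as most members have, were 427 of those tested. They had medians of 0.08 with vehicle, 0.26 at 2 h and 0.08 at 12 h. Of them 61.8%, 75.2% and 67.9% had this direction at the same times. These differences were noticed after the values were seen, and what made them was not tested.

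A gene was tested where at least 2 libraries reached 2 CPM. This held for 9 of the 10 members and for 11080 genes in all, and S100a9 was the member left out. At 2 h 0 of the 9 members were called at an adjusted p under 0.05 in either direction, against 9.91% of all tested genes called higher and 5.25% called lower. The count was also 0 at an unadjusted p under 0.05 (29.7% of all tested genes), and 0 with limma-voom and with DESeq2. The groups overlapped for every member. The median log2FC of the 9 members was 0.00, against -0.01 for all tested genes. The value farthest from 0 was that of S100a14, -0.30 (SE 0.28, adjusted p = 0.52), followed by S100a1 at 0.17 (SE 0.14, adjusted p = 0.448). Smaller positive values of S100a4, S100a6 and S100a16, at most 0.10, turned to -0.06, -0.01 and -0.02 when libraries were scaled by total counts alone.

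At 12 h 1 of the 9 tested members was called higher than vehicle, against 21.8% of all tested genes, and 2 were called lower, against 21.5%. The share of members called, 3 of 9, is thus not above that of all genes. Both falling members also exceeded a log2FC of 1 in size, a limit passed by 11.6% of all tested genes in that direction, but S100a4 had -0.92 without replicate 1 of the 12 h group. At an unadjusted p under 0.05 the count was 4, against 51.6% of all tested genes, the additional gene being S100a13. The median log2FC of the 9 was -0.25, against 0.02 for all tested genes. Between 2 h and 12 h of TGFβ, 1 member was again called higher (15.2% of all tested genes) and 2 lower (18.9%), with a median of -0.18 against 0.01, and 4 had an unadjusted p under 0.05 (45.3%). The called members were S100a16, S100a4 and S100a8 in both comparisons, which share the 12 h libraries. With the replicate number as a block, 4 members rather than 2 were lower in the latter, S100a13 and S100a6 being added, and at 2 h 3222 genes rather than 1680 were called, no member among them. Scaling by total counts alone moved the median log2FC of all tested genes to -0.12 at 2 h and -0.11 at 12 h against vehicle. With it, 46.7% of the calls at 2 h and 37.5% of those at 12 h were higher, against 65.4% and 50.3% with TMM factors. The directions of S100a4, S100a8 and S100a16 at 12 h were the same under each scaling tried.

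S100a4 (chr3:90407692-90409967 of NCBIM37, plus strand) binds the heavy chain of non-muscle myosin IIA and promotes cell motility. It measured 1081 and 1095 CPM with vehicle, 961 and 1293 CPM after 2 h and 414 and 582 CPM at 12 h. Both 12 h libraries were far below the other 4, and the 2 h libraries lay on either side of vehicle. From a mean of 1088 ± 9.58 CPM (SD, n = 2) with vehicle, S100a4 fell to 498 ± 119 CPM at 12 h, 0.458 of the vehicle level, with log2FC -1.13 (SE 0.2, adjusted p = 0.00497). The mean at 2 h was 1127 ± 235 CPM, with log2FC 0.05 (SE 0.2, adjusted p = 0.893), and the fall from 2 h to 12 h was -1.18 (SE 0.2, adjusted p = 0.00608). Less RNA per cell and fewer cells that make a transcript cannot be told apart in bulk libraries, here or for any other gene. A comparison within libraries needs no scaling. S100a4 counts were 19.1% and 19.2% of the S100a6 counts with vehicle, 17.8% and 19.0% at 2 h and 9.9% and 10.7% at 12 h. The genes start only 9.1 kb apart, and the ratio shows that they did not change equally.

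S100a8 (chr3:90472993-90473956, plus strand) encodes a subunit of calprotectin, a metal-binding complex of inflammatory cells that keratinocytes and other epithelia can also make. It was a rare transcript here, with 41 and 46 counts with vehicle, 43 and 62 at 2 h and 11 and 17 at 12 h. In CPM this was 2.41 and 2.93, then 2.17 and 3.13, then 0.479 and 0.872. Both 12 h libraries were below all others. From a level of 2.67 ± 0.365 CPM (SD, n = 2) with vehicle and 2.65 ± 0.672 CPM at 2 h it fell to 0.676 ± 0.278 CPM at 12 h, 0.252 of the vehicle level. The log2FC was -1.99 (SE 0.4, adjusted p = 0.00743) against vehicle and -1.98 (SE 0.39, adjusted p = 0.01) against 2 h. Without replicate 1 of the 12 h group the adjusted p rose to 0.0546 and 0.0753. S100a8 reached the limit of 2 CPM only in the groups in which it was high, but it was called without any filter too (adjusted p = 0.00375, within a range of 0.000547 to 0.00909 over 8 alternatives). Of the myeloid markers, Lyz2 had 1 and 3 counts with vehicle, 2 and 4 at 2 h and 0 and 0 at 12 h, and Itgam 13 and 1, then 13 and 6, then 5 and 4. Csf1r did not fall, with 16 and 8, then 13 and 18, then 22 and 15, nor did Ngp, with at most 4. Whether leukocytes had a part in the S100a8 counts was not tested.

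S100a9 (chr3:90496554-90499643, minus strand), the partner of S100a8 in calprotectin, had 5 and 10 counts with vehicle, 3 and 10 at 2 h and 2 and 14 at 12 h. The replicates of a group differed more than the groups did. Without a filter its log2FC at 12 h was -0.25 (SE 0.93, adjusted p = 0.894). No change of S100a9 was detected, and whether the pair differ was not tested.

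S100a16 (chr3:90341176-90347073, plus strand) is a widely expressed member found in the nucleus and cytoplasm. It measured 75.7 and 73.1 CPM with vehicle, 84.1 and 75.0 CPM after 2 h and 113 and 130 CPM at 12 h. The 12 h libraries were above all others, and the 2 h libraries overlapped vehicle. S100a16 rose from 74.4 ± 1.8 CPM (SD, n = 2) with vehicle to 121 ± 12.5 CPM at 12 h, a 1.63-fold difference, with log2FC 0.70 (SE 0.12, adjusted p = 0.0035). At 2 h the mean was 79.6 ± 6.46 CPM, and the log2FC from 2 h to 12 h was 0.61 (SE 0.12, adjusted p = 0.00872). Without replicate 2 of the 12 h group the latter had an adjusted p of 0.0749. S100a16 was the only member called higher, and it did not reach a log2FC of 1.

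S100a13 (chr3:90318357-90328503, plus strand) takes part in the release of FGF1 and interleukin 1α, which leave cells without a signal peptide. It measured 86.6 and 89.8 CPM with vehicle, 78.3 and 98.5 CPM after 2 h and 52.1 and 73.0 CPM at 12 h. Both 12 h libraries were below the others, but they differed widely from each other. The log2FC at 12 h against vehicle was -0.50 (SE 0.19, adjusted p = 0.0701, unadjusted p = 0.0334), which missed the threshold. Over 8 alternatives the adjusted p ran from 0.00435 to 0.0676. DESeq2 called it (0.0376), as did edgeR with the replicate number as a block (0.00435), with total counts (0.0379) and with only the 2 groups compared (0.0284), while limma-voom (0.0623) and the other 3 did not. Leaving out 1 library gave adjusted p-values from 0.0314 to 0.283. S100a13 passed the test without replicate 1 (0.0314) or replicate 2 (0.0343) of the 2 h group and without replicate 2 of the 12 h group (0.0357). From 2 h to 12 h the log2FC was -0.50 (SE 0.19, adjusted p = 0.0797), with a range of 0.00579 to 0.11 over the same 8. It passed with DESeq2 (0.0492), with the block (0.00579) and without replicate 1 of the 2 h group (0.0336).

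S100a6, S100a10 and S100a11 are known for binding annexins, and none of the 3 was called by the main test. S100a6 (chr3:90416816-90418336, plus strand), or calcyclin, measured 5673 and 5717 CPM with vehicle, 5412 and 6797 CPM after 2 h and 4185 and 5418 CPM at 12 h. The 12 h libraries were below vehicle, yet the higher of them exceeded the lower 2 h library. The log2FC at 12 h was -0.25 (SE 0.17, adjusted p = 0.283) against vehicle and -0.35 (SE 0.17, adjusted p = 0.161) against 2 h. The latter passed with the replicate number as a block (adjusted p = 0.0439) and with no other alternative. S100a10 (chr3:93359002-93368565, plus strand), which forms a tetramer with annexin A2 at the plasma membrane, measured 332 and 332 CPM with vehicle, 292 and 336 CPM after 2 h and 345 and 371 CPM at 12 h. Its replicates lay close together, and the 12 h libraries were slightly above the others. Its log2FC at 12 h was 0.11 (SE 0.11, adjusted p = 0.455), or -0.02 with scaling by total counts. S100a11 (chr3:93324410-93330209, plus strand), a partner of annexin A1, measured 12.9 and 20.8 CPM with vehicle, 12.8 and 19.1 CPM after 2 h and 12.5 and 17.7 CPM at 12 h. Its replicates differed far more than its groups, and the log2FC at 12 h was -0.17 (SE 0.31, adjusted p = 0.699).

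S100a1 (chr3:90314956-90318314, minus strand) is best known from heart muscle, where it acts on calcium release. It measured 81.5 and 80.3 CPM with vehicle, 81.4 and 101 CPM after 2 h and 74.8 and 86.8 CPM at 12 h. The groups overlapped, and the log2FC at 12 h was -0.00 (SE 0.14, adjusted p = 0.992). S100a14 (chr3:90330778-90332755, plus strand) is expressed mainly in epithelia. It measured 3.35 and 2.55 CPM with vehicle, 2.63 and 2.17 CPM after 2 h and 2.13 and 2.51 CPM at 12 h. Its counts were low and alike, from 40 to 57 per library, and the log2FC at 12 h was -0.35 (SE 0.28, adjusted p = 0.351).

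The 10 genes lie in 2 blocks on chromosome 3. The first block, chr3:90314956-90499643 of NCBIM37 (184.7 kb), held 11 counted genes with a position in the annotation, all S100 genes and 8 of them members. No position was found by symbol or synonym for 626 of the 21240 counted genes, S100a2 among them. The orders and neighbours given here leave such genes out. The last block, 44.2 kb with S100a11 and S100a10, lay 2824.8 kb further on. Direction did not follow order within the first block. Among the genes with a position, S100a16, which rose, was followed by S100a3 (log2FC -0.01, SE 0.26, adjusted p = 0.99) and then by S100a4, which fell. S100a16 and S100a4 start 66.5 kb apart. S100a5, between S100a4 and S100a6, had at most 4 counts. S100a7a, before S100a8, was too rare for the test, with 7 and 4 counts with vehicle, 7 and 7 at 2 h and 24 and 30 at 12 h. Both 12 h libraries were higher, and without a filter its log2FC was 1.92 (SE 0.51, adjusted p = 0.0174) at 12 h, next to the fall of S100a8. S100a1 and S100a13 run in opposite directions from starts 43 bp apart. Their log2FC at 12 h were -0.00 and -0.50, neither called. Beyond the first block, Chtop on one side had log2FC 0.16 (SE 0.15, adjusted p = 0.423) at 12 h and Pglyrp4 on the other had no counts. Tchhl1 and Tdpoz2, which flank the last block, had no counts either.

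**Figure D2:**
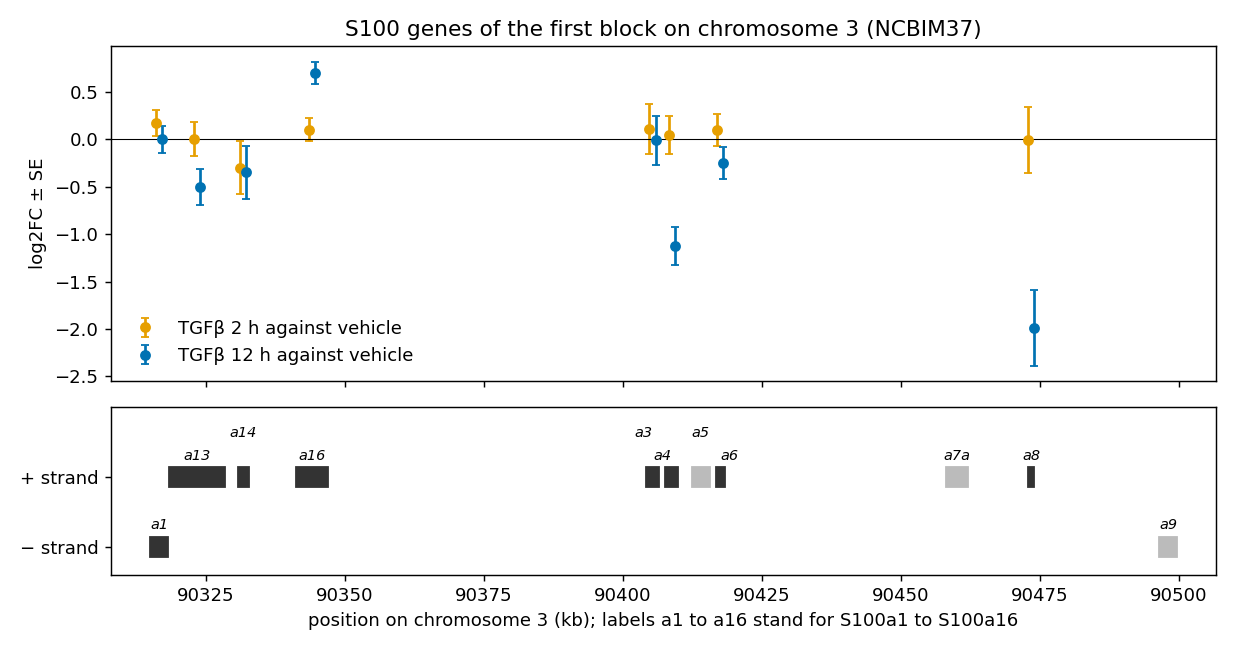
Map of the first S100 block on chromosome 3 (NCBIM37, position in kb). The upper panel gives log2FC ± SE against vehicle of the 8 tested genes at 2 h and 12 h, set slightly apart to the sides of each gene, and the lower panel gives gene spans by strand, black where tested and grey where too rare. At 12 h S100a16 stands at 0.70, S100a4 at -1.13 and S100a8 at -1.99, with the other tested genes nearer 0. S100a7a and S100a9, on either side of S100a8, were too rare for the test and have no point. Without a filter S100a7a had log2FC 1.92 at 12 h.

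Promoters are shown for the 3 members that were called. RefSeq promoters (GRCm38.p6) were matched by symbol for 8 members, with 9 starts in all, and S100a10 and S100a14 had no entry. The 250 bases before each start were found once, unchanged, on chromosome 3 of NCBIM37, whose coordinates are given. They run 5′ to 3′ on the plus strand, and capitals mark matches, on either strand, to CAGAC or GTCTG, a short sequence that SMAD proteins bind, and to TATAAA or TTTATA, the core of the TATA box. S100a16 has a second RefSeq start, whose window is not shown.
S100a4, chr3:90407442-90407691: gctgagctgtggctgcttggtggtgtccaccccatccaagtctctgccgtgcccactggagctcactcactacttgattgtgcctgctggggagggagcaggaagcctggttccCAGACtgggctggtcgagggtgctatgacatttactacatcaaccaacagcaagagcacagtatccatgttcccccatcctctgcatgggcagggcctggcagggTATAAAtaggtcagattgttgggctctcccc
S100a8, chr3:90472743-90472992: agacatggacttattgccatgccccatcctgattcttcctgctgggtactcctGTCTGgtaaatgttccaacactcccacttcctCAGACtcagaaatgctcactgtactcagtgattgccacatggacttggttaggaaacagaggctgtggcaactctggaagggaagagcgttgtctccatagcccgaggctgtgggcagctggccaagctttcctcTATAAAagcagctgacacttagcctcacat
S100a16, chr3:90340926-90341175: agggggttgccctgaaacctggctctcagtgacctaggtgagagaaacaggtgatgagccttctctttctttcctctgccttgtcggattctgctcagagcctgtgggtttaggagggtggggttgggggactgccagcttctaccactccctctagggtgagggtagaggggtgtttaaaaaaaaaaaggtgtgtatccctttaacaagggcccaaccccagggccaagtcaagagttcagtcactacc
S100a4 and S100a8, the falling members, were the only ones of the 9 windows with TATAAA or TTTATA, which 12.4% of all 32851 promoter windows hold. Its first base lay 31 bases before the start of S100a4 and 30 before that of S100a8. CAGAC or GTCTG, found in 42.2% of all windows, occurred in S100a4, S100a8, S100a6 and the second start of S100a16, so it did not separate falling, rising and uncalled genes. The palindrome GTCTAGAC (0.2% of all windows) occurred in none of the 9. The AP-1 sequence TGAGTCA or TGACTCA (4.5%) occurred only before S100a11, at 2 places, and S100a11 was not called. A match of letters describes the window and does not show that a factor bound there.

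Genes of proteins that S100 proteins bind were examined next. Of 17 listed partners and receptors 15 were tested. At 2 h 2 were higher and 1 lower, against 9.91% and 5.25% of all tested genes, and at 12 h 6 were higher and 3 lower, against 21.8% and 21.5%, with a median log2FC at 12 h of 0.18 against 0.02 for all tested genes. Between 2 h and 12 h 4 were higher and 3 lower, against 15.2% and 18.9%. Myh9, Ppfibp1 and Trp53, whose proteins are among those that bind S100A4, were higher at 12 h, while S100a4 was lower. Myh9, the heavy chain of non-muscle myosin IIA, went from 2171 CPM with vehicle to 3515 CPM after 2 h and 6021 CPM at 12 h, with log2FC 0.70 (SE 0.11, adjusted p = 0.00854) and 1.47 (SE 0.11, adjusted p = 0.000164). Ppfibp1, or liprin β1, rose by 0.75 (SE 0.14, adjusted p = 0.0155) at 2 h and 1.13 (SE 0.14, adjusted p = 0.00103) at 12 h. Trp53, which encodes p53, rose by 0.51 (SE 0.15, adjusted p = 0.0297) at 12 h.

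Receptors of calprotectin differed from one another. Tlr4 fell from 83.0 CPM with vehicle to 39.1 CPM after 2 h and 23.4 CPM at 12 h, with log2FC -1.08 (SE 0.26, adjusted p = 0.0369) and -1.83 (SE 0.27, adjusted p = 0.00209). Ager, the gene of RAGE, was below the limit for the test. Its mean was 1.11 CPM with vehicle (1.59 and 0.637), 0.53 CPM after 2 h and 1.04 CPM at 12 h. Bsg, a receptor of S100A9, had log2FC -0.26 (SE 0.11, adjusted p = 0.0929), and Nptn, a receptor of S100A8, 0.18 (SE 0.13, adjusted p = 0.297), neither called at 12 h against vehicle. Bsg was lower at 12 h than at 2 h (log2FC -0.43, SE 0.11, adjusted p = 0.0235). Among partners of the other members, Fgf1, exported with S100A13, fell from 94.6 to 23.3 CPM at 12 h (log2FC -2.02, SE 0.17, adjusted p = 0.00025). S100pbp, whose nuclear protein binds S100P, a protein outside the members examined, rose from 6.19 to 14.6 CPM (log2FC 1.24, SE 0.21, adjusted p = 0.00419).

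Annexins, membrane-binding proteins regulated by calcium, moved in both directions. Of the 12 listed, all tested, 1 was called at 2 h, Anxa8, which was higher, and 4 were higher and 4 lower at 12 h, with a median log2FC of -0.05. Of all tested genes 9.91% were called up after 2 h, then 21.8% up and 21.5% down at 12 h, where the median was 0.02. Anxa2, which binds S100A10, rose from 1098 CPM with vehicle to 2679 CPM at 12 h (log2FC 1.29, SE 0.15, adjusted p = 0.000711), whereas S100a10 itself was not called. Anxa5 rose by 1.29 (SE 0.11, adjusted p = 0.000222) and Anxa8 by 1.48 (SE 0.14, adjusted p = 0.000378). Anxa11, a partner of S100A6, had log2FC -1.16 (SE 0.11, adjusted p = 0.000344) and Anxa4 -1.34 (SE 0.15, adjusted p = 0.000611). The largest falls were those of Anxa13, -2.15 (SE 0.12, adjusted p = 6.17e-05), and Anxa10, -3.82 (SE 0.34, adjusted p = 0.000292, or 3.2e-05 without a filter). From 2 h to 12 h 5 annexins were higher and 4 lower, against 15.2% and 18.9% of all tested genes. Of 14 other EF-hand genes, such as calmodulins and calpains, 12 were tested, and at 2 h 2 were higher (9.91% of all tested genes) and 1 lower (5.25%). At 12 h 7 were higher (21.8% of all tested genes) and 1 lower (21.5%), with a median of 0.45 against 0.02, and from 2 h to 12 h 5 were higher (15.2%) and 1 lower (18.9%).

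Genes of the family outside the 10 members were also counted. Of 7 further S100 genes 3 were tested, and 2 of these were lower at 12 h (21.5% of all tested genes) and from 2 h to 12 h (18.9%). S100b, best known from glia, had 68 and 38 counts with vehicle, 68 and 56 at 2 h and 15 and 14 at 12 h. Both 12 h libraries were below the rest, with log2FC -2.22 (SE 0.36, adjusted p = 0.00329) against vehicle. It reached 2 CPM only in the other groups, but was called without a filter too (adjusted p = 0.00136). S100g, the vitamin D-dependent calbindin that carries calcium through epithelial cells, had a mean of 115 CPM with vehicle, 105 CPM after 2 h and 67.1 CPM at 12 h. Its log2FC at 12 h was -0.78 (SE 0.2, adjusted p = 0.0184) against vehicle and -0.64 (SE 0.2, adjusted p = 0.0452) against 2 h. S100a2, S100a5 and S100z had at most 4 counts in any library. Of 6 fused-type S100 genes, large proteins of the epidermal barrier, 5 were in the table and 0 could be tested, since 4 had no counts and Tchh had at most 5.

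Genes with the pattern most like S100a16 and S100a8 were sought among the other 11079 tested genes, as the Euclidean distance between centred log2 CPM values over the 6 libraries. Nearest to S100a16 were Scamp4 (distance 0.101), Pisd (0.104), Rps6kc1 (0.124), Rnf215 (0.124) and Plod3 (0.13). Nearest to S100a8 were Gstp1 (distance 0.238), Slc22a4 (0.242), Mapk8ip1 (0.281), Cep128 (0.288) and Cmc2 (0.313). Their log2FC at 12 h against vehicle ran from -1.80 (Cep128) to -1.53 (Gstp1), against -1.99 for S100a8. The 0.25 CPM added before logarithms narrows the range of a gene as rare as S100a8, and its part in this order was not tested. S100a4 took place 80 in the order for S100a8, at 0.622, and S100a13 place 1132, at 1.36.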

How the data were processed

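RNA of NMuMG cells was sequenced in 6 libraries, 2 per group. The authors filtered the reads, mapped them to mm9 (NCBIM37) with subjunc of Rsubread, kept unique alignments, ran rmdup of SAMtools 0.1.19 and summed reads over knownGene exons on the reverse strand with featureCounts. The deposited values are raw counts of 21240 genes.

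Tests were run with edgeR 4.0.16 in R 4.3.3 (quasi-likelihood F-test, TMM factors, 1 fit of 3 groups), limma 3.58.1 and DESeq2 1.42.0, and with Python 3.11.15, numpy 2.4.6, pandas 2.3.3 and matplotlib 3.10.9. Genes with at least 2 CPM in 2 libraries were tested, and p-values were adjusted over all 11080 by the Benjamini-Hochberg method, with calls made at 0.05. The SE of a log2FC is its size divided by the root of F. Depth was 14705886 to 23786993 counts, and the biological coefficient of variation was 0.148. RPKM used union exon lengths of GENCODE on NCBIM37, which can differ from the exons the authors counted, and 0.25 CPM was added before logarithms. The fit was tested on data simulated from its own means and spread with changes of known size. These held no effect of the replicate number, so they cannot show how such an effect would act on the calls.

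The replicate numbers are shared by the groups, but the labels do not say what a number stands for. Deviations from the group means correlated between equal numbers with r = 0.708 (vehicle and 2 h), 0.263 (vehicle and 12 h) and 0.392 (2 h and 12 h) across 11080 genes, which are not independent replicates, so the pairing comes from the data alone.

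Each comparison was repeated with DESeq2 and limma-voom, with scaling by DESeq2 size factors or by totals alone, with a minimum of 10 counts per library or none, with a term for the replicate number, with only the groups compared, without each library in turn, and with a log2FC limit of 1. Members and lists were chosen with earlier results of these data known. Named were all members, other S100 genes with at least 10 counts in 1 library, partners and annexins that bind a called member or were called with a log2FC beyond 1, the genes next to each member, and the 5 genes nearest in pattern to the called members with the largest rise and fall at 12 h. Of the listed genes, 2 are not reported here by name, and sums over a list keep them.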

Additional observations from a re-analysis of the deposited data

Results flagged for a closer look

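For 3 members the response to TGFβ at 12 h differed from that at 2 h, both against vehicle, by edgeR's quasi-likelihood test of the difference, adjusted over 11080 genes by the Benjamini-Hochberg method. The difference in log2FC was -1.18 (SE 0.2, adjusted p = 0.00608) for S100a4, -1.98 (SE 0.39, adjusted p = 0.01) for S100a8 and 0.61 (SE 0.12, adjusted p = 0.00872) for S100a16. The call of S100a8 was lost without replicate 1 of the 12 h group (adjusted p = 0.0753) and that of S100a16 without replicate 2 of it (adjusted p = 0.0749). The extra time without serum and insulin at 12 h cannot be told apart from the longer treatment.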

How the results depend on the processing

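S100a4, S100a8 and S100a16 kept their direction at 12 h, against vehicle and against 2 h, under every alternative, with calls of S100a8 and S100a16 lost as given above for 1 library left out and that of S100a16 also with a limit on the log2FC. Over the alternatives other than leaving out a library, log2FC against vehicle ran from -1.26 to -1.13 for S100a4, from -2.12 to -1.99 for S100a8 and from 0.58 to 0.71 for S100a16. With 1 library left out it ran from -1.40 to -0.92 for S100a4, from -2.47 to -1.62 for S100a8 and from 0.59 to 0.79 for S100a16, and against 2 h from -1.45 to -0.95 for S100a4. With a limit of 1 on the size of the log2FC, members called higher went from 1 to 0 at 12 h against vehicle and against 2 h, and calls over all genes from 1680 to 692 at 2 h, from 4799 to 2176 at 12 h and from 3775 to 1593 for 12 h against 2 h. With only the 2 groups compared, 882 genes were called at 2 h. With total counts, log2FC at 2 h became -0.06 for S100a4, -0.01 for S100a6 and -0.02 for S100a16, and at 12 h -0.02 for S100a10. None of these 4 values was called under either scaling.

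Leaving out 1 library, where the lone library left is assumed to vary like the other groups, gave 0 to 0 members called in either direction and 618 to 2196 genes at 2 h. At 12 h it gave 1 to 1 members higher, 1 to 3 lower and 2822 to 5410 genes, and against 2 h 0 to 1 higher, 1 to 3 lower and 1605 to 3816 genes. At 2 h the count of genes fell most without veh replicate 1 (618), veh replicate 2 (709) and either 12 h replicate (900 each), at 12 h without TGFb12h replicate 1 (2898) or 2 (2822), and against 2 h without TGFb12h replicate 1 (1605) or 2 (1660). Values that crossed 0, none of them called, ranged at 2 h from -0.18 to 0.23 for S100a4, -0.07 to 0.24 for S100a6, -0.29 to 0.21 for S100a8, -0.39 to 0.30 for S100a11, -0.17 to 0.14 for S100a13 and -0.01 to 0.18 for S100a16. They ranged for S100a1 from -0.12 to 0.09 at 12 h, for S100a11 from -0.47 to 0.21 at 12 h and from -0.36 to 0.22 against 2 h, and for S100a14 from -0.18 to 0.10 against 2 h. The cause was not tested.

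With the replicate number as a block, 3222 genes were called at 2 h, 6127 at 12 h and 5373 for 12 h against 2 h, and 4 members were lower against 2 h, S100a13 (adjusted p = 0.00579) and S100a6 (adjusted p = 0.0439) besides S100a4 and S100a8. S100a13 was also called at 12 h against vehicle (adjusted p = 0.00435). The block changed no other call of a member.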

Other observations

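The 50 counted genes with a position between the S100 blocks on chromosome 3 belong mostly to the cornified envelope of the epidermis. Of these, 35 had at most 3 counts in every library. The 6 tested genes were chosen for mention after their values were seen. Lce1g had 0 and 1 counts with vehicle, 2 and 2 at 2 h and 255 and 290 at 12 h, and Lce1f had 0 and 0, then 8 and 15, then 66 and 66. Both were called higher at 12 h by edgeR (adjusted p = 8.99e-05 and 0.000858). Lce1g, Lce1f and Ivl reached 2 CPM only at 12 h and Sprr2g only in the other groups, and without a filter their adjusted p at 12 h was 5.04e-06, 0.000136, 0.0011 and 0.000196. Ivl, the gene of involucrin, rose from 12 and 10 counts to 63 and 61 (log2FC 2.11, SE 0.31, adjusted p = 0.00203), and Sprr1a rose by 1.02 (SE 0.3, adjusted p = 0.0341). Sprr2g fell from 79 and 88 counts to 21 and 22 (log2FC -2.32, SE 0.26, adjusted p = 0.000715). Sprr1b was not called (log2FC 0.50, SE 0.34, adjusted p = 0.273).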
